A study of Mus musculus with 8 samples.

Results

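Genes that store fat in lipid droplets and break it down again were examined in mouse hearts under pressure load. The set was defined by gene symbol and holds 10 genes: the lipases and lipase regulators Pnpla2, Abhd5, G0s2, Lipe and Mgll, the droplet coat genes Plin2, Plin4 and Plin5, and the acyltransferases Dgat1 and Dgat2. All 10 had a probe set with exactly 1 symbol, out of 22180 genes on the array with such a probe set, and all 10 passed the filter on low signals that left 15086 genes for testing. G0s2 was the 1 gene of the 10 with 2 probe sets, and the one with the higher mean over the arrays was used.

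Signals came from 8 Affymetrix arrays of whole frozen hearts from male C57Bl6N mice, harvested 1 week after transverse aortic constriction (TAC), an operation that narrows the aorta and makes the left ventricle pump against a raised pressure. One group held 4 hearts with a knockout of CITED4, a transcriptional co-regulator, and the other held 4 hearts of floxed controls, whose Cited4 allele carries the recombination sites. Every heart had been through TAC, so the comparison is of genotypes under load, and no unoperated heart was analysed here. The sources used here do not give the Cre driver, whether controls carried Cre, the animals' age, or how litters and array runs were assigned. An effect of Cre and one of the knockout therefore cannot be told apart, and the p-values reflect only how these samples vary, which may be technical.

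Fatty acids that a cardiac muscle cell takes up in excess of its immediate need are joined to glycerol and stored as triglyceride in small droplets. DGAT1 and DGAT2 carry out the last step of that synthesis. Perilipins coat the droplet, and perilipin 5, abundant in oxidative muscle, also ties it to mitochondria and restrains lipolysis. Adipose triglyceride lipase, the product of Pnpla2, starts the breakdown with help from its co-activator ABHD5 and against its inhibitor G0S2. Hormone-sensitive lipase (Lipe) and monoglyceride lipase (Mgll) complete it. In the heart the freed fatty acids serve as fuel and as ligands for PPAR-alpha, the nuclear receptor that switches on fatty acid use.

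The stretches just before Pnpla2, its co-activator gene Abhd5 and 2 perilipin genes are shown because PPARs and estrogen-related receptors, which act on several of these genes, bind repeats or extensions of the hexamer AGGTCA. RefSeq's promoter table (GRCm38.p6) held 8 of the 10 genes, and Dgat1 and Dgat2 were not in it. Capitals mark AGGTCA or its reverse complement TGACCT. Each stretch is given 5′ to 3′ on the gene's strand and ends where the annotated gene begins. Pnpla2 is from chr7:141454938-141455187, plus strand, Plin5 from chr17:56117607-56117798, minus strand, Abhd5 from chr9:122351366-122351615, plus strand, and Plin2 from chr4:86670218-86670309, minus strand.
Pnpla2: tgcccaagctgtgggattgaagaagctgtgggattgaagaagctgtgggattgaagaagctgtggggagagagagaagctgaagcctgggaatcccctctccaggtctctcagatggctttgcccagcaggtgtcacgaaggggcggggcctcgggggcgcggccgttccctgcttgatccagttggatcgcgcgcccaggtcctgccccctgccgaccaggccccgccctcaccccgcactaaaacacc
Plin5: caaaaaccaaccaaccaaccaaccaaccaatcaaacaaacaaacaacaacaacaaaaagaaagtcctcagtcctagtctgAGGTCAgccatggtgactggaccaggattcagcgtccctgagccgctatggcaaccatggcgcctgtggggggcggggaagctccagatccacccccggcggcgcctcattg
Abhd5: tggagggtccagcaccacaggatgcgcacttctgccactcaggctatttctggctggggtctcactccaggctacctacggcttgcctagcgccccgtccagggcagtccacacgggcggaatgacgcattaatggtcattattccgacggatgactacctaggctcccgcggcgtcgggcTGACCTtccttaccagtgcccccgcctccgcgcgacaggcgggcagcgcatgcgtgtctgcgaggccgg
Plin2: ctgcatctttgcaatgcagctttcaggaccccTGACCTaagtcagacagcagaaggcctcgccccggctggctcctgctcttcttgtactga

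The hexamer was searched on both strands in the 250 bases before each start. It was found for Plin5, Abhd5 and Plin2, which is 3 of the 8 genes in the table, against 15.8% of all 27025 genes. Because a gene can have more than 1 start, the 8 genes have 11 windows, of which 3 held it, against 14.0% of all 32851 windows. It lay 112 bases before the annotated gene for Plin5, 69 for Abhd5 and 60 for Plin2, counted to its first base. The PPAR-type direct repeat, 2 copies of the hexamer in the same direction with 1 base between them, was in 0 of the 11 windows, against 0.033% of all windows. The estrogen-related receptor element TNAAGGTCA, which contains the hexamer, was also in 0 of 11, against 1.14% of all windows. The palindrome GCCNNNGGC, a form of the site of the TFAP2 factors with which CITED4 works, was found for 4 of the 8 genes, G0s2, Lipe, Plin2 and Plin5, against 15.4% of all genes, and in 4 of the 11 windows, against 13.7% of all windows. These are matches of letters and do not show binding, and no match says only that these letters are not in this window.

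The Cited4 signal of each control heart exceeded that of each knockout heart, with 5.98 ± 0.20 against 5.07 ± 0.19 (log2, mean ± SD, n = 4 per group). The sources used here do not say whether its probes lie in the deleted part. In the test over all genes, limma called 0 of 15086 genes at an adjusted p of 0.05 (0%), and 1697 had an unadjusted p under 0.05. The values below are therefore given as differences with their errors. The arrays had medians of 4.29 to 4.33 (log2).

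All 10 genes had a lower mean signal in the knockout than in the control hearts, where 48.8% of all tested genes did. The differences ran from -0.03 for Dgat1 to -0.57 for Plin5 (log2), with a median of -0.12, against a median of 0.00 over all tested genes (0.0038). Without knockout replicates 1 and 4 the median was -0.0554 and 8 of the 10 were lower. With each array left out in turn it lay between -0.18 and -0.09. None of the 10 passed the test (0 at an adjusted p of 0.05 with limma; adjusted p from 0.421 to 0.956). Pnpla2 and Plin5 had an unadjusted p under 0.05, which is 2 of 10 lower, beside 5.61% of all tested genes lower at that level. No gene of the 10 was higher at that level (0 of 10, beside 5.64% of all tested genes). The groups did not overlap for 1 of 10, Pnpla2, which was lower, beside 2.9% of all tested genes lower without overlap and 2.33% higher without overlap. The signs of several small differences were not stable: those of Dgat1, G0s2 and Plin2 turned when certain arrays were left out, and G0s2 also with the mean of its probe sets and Dgat1 with array weights. In whole hearts, fewer cells of a type and less RNA per cell cannot be told apart.

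**Figure D1:**
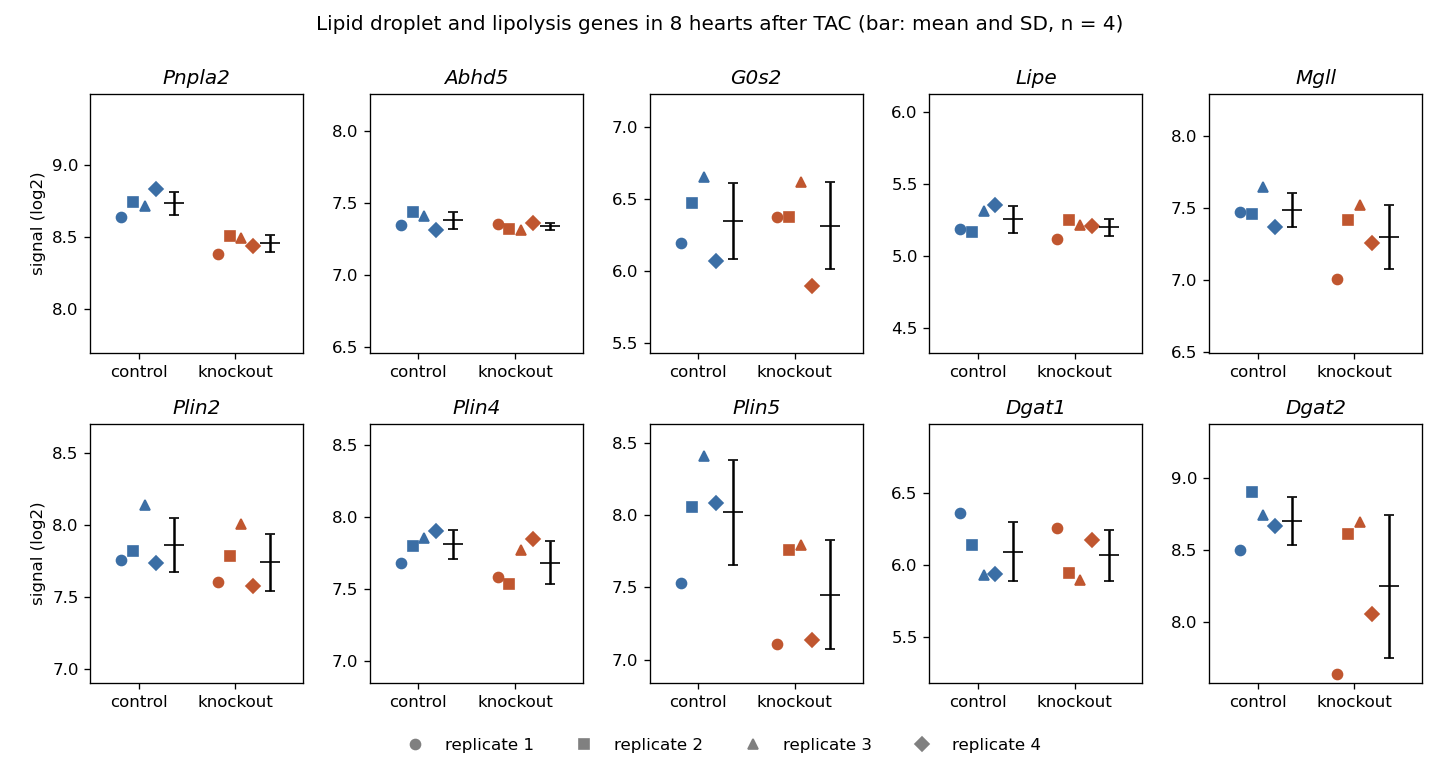
Signal (log2, y axis) of each of the 10 genes in the 4 control and 4 knockout hearts (x axis), with marker shape for the replicate number and a bar for mean and SD; every panel spans the same number of log2 units. Only Pnpla2 has groups without overlap, with the lowest control at 8.64 and the highest knockout heart at 8.51, while Plin5 and Dgat2 spread widest.

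Pnpla2, which encodes adipose triglyceride lipase, separated the genotypes most evenly. Its signal was 8.64, 8.74, 8.72 and 8.83 in control replicates 1 to 4 and 8.38, 8.51, 8.49 and 8.43 in knockout replicates 1 to 4 (log2). Every knockout heart lay below every control heart, with a gap of 0.13 between the nearest values, and the spread within each group was small (SD 0.08 and 0.06). Knockout minus control came to -0.28 ± 0.07 (log2, SE; 95% interval -0.44 to -0.12), and the knockout signal was 82.4% of control (73.6 to 92.3%). With limma its unadjusted p was 0.00346, the 87th smallest of the 15086 genes, and the adjusted p was 0.421. In the exact two-sided permutation test p was 0.0286, the minimum for groups of 4. The difference stayed between -0.31 and -0.24 when each array was left out in turn, with an unadjusted limma p under 0.05 each time.

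The co-activator gene Abhd5 was nearly level across all hearts. It measured 7.35, 7.44, 7.41 and 7.31 in the control and 7.36, 7.32, 7.31 and 7.36 in the knockout hearts (log2 signal). The groups overlapped throughout, and the difference was -0.04 ± 0.07 (SE; 95% interval -0.19 to 0.11; adjusted p = 0.844 with limma). Its full range over the 8 hearts, 0.13, was the narrowest of the 10 genes.

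G0s2, the inhibitor of adipose triglyceride lipase, varied from heart to heart without a genotype pattern. Control replicates 1 to 4 were at 6.20, 6.48, 6.66 and 6.07 and knockout replicates 1 to 4 at 6.38, 6.38, 6.62 and 5.90 (log2 signal). The highest and the lowest heart were control replicate 3 and knockout replicate 4. The difference was -0.03 ± 0.17 (SE; 95% interval -0.41 to 0.34; adjusted p = 0.956 with limma), an interval that spans 75.5 to 127% of the control signal. Its dimmer probe set gave a difference of 0.06 at a mean of 4.43.

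Within-heart differences were compared across genotypes for 4 pairs of genes chosen after the values were seen. They were Pnpla2 minus Abhd5, Pnpla2 minus G0s2, Plin5 minus Plin2 and Dgat2 minus Dgat1. Pnpla2 minus Abhd5 was 1.35 ± 0.11 in control and 1.12 ± 0.08 in knockout hearts (log2, SD, n = 4), with control values of 1.29 to 1.52 and knockout values of 1.03 to 1.19. These did not overlap (difference -0.24; exact two-sided permutation p = 0.0286, adjusted over the 4 pairs p = 0.114). Pnpla2 minus G0s2 was 2.38 ± 0.30 and 2.14 ± 0.29 (difference -0.25; exact permutation p = 0.286, adjusted p = 0.286), with overlapping groups. After adjustment neither contrast passed 0.05. With a smallest possible exact p of 0.0286, 1 separated pair alone among the 4 could not pass, so the adjusted values decide nothing. Abhd5 ranged over only 0.13, so Pnpla2 minus Abhd5 largely repeats the Pnpla2 values.

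Of the enzymes that complete lipolysis, Lipe showed little difference and Mgll a wider one. Lipe, which encodes hormone-sensitive lipase, ran from 5.17 to 5.36 in control and from 5.12 to 5.25 in knockout hearts (log2 signal; difference -0.06 ± 0.08, SE; adjusted p = 0.797 with limma). Mgll, the monoglyceride lipase gene, measured 7.48, 7.46, 7.65 and 7.37 in control and 7.01, 7.41, 7.52 and 7.26 in knockout hearts. The lowest 2 values were knockout replicates 1 and 4, and the other 2 knockout hearts lay within the control range. The difference was -0.19 ± 0.12 (SE; 95% interval -0.45 to 0.07; adjusted p = 0.543 with limma) and was -0.09 without knockout replicate 1.

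Plin5, the perilipin of oxidative muscle, had the largest difference of the 10 and the widest spread. Its signal was 7.53, 8.06, 8.42 and 8.09 in control replicates 1 to 4 and 7.11, 7.76, 7.80 and 7.13 in knockout replicates 1 to 4 (log2). The groups overlapped because control replicate 1 lay below knockout replicates 2 and 3, and without control replicate 1 they did not overlap. The difference was -0.57 ± 0.21 (log2, SE; 95% interval -1.05 to -0.10), or 67.2% of the control signal (48.4 to 93.3%). Limma gave an unadjusted p of 0.0223 and an adjusted p of 0.421, and the exact two-sided permutation p was 0.0857. The unadjusted limma p was 0.0681 without control replicate 3 (difference -0.44), 0.0677 without knockout replicate 1 (-0.46) and 0.0674 without knockout replicate 4 (-0.47), with adjusted p-values of 0.651, 0.741 and 0.681. With any of the other arrays left out, the unadjusted limma p was 0.00406 to 0.0482, with adjusted p-values of 0.229 to 0.690. The unadjusted p from the gene's own variance alone was 0.0721 (adjusted p = 0.555).

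The other perilipins differed less. Plin2, the widely expressed droplet coat gene, was at 7.76, 7.82, 8.14 and 7.74 in control and at 7.60, 7.78, 8.01 and 7.58 in knockout hearts (log2 signal). The groups overlapped, with a difference of -0.12 ± 0.12 (SE; adjusted p = 0.724 with limma). Plin4, which coats nascent droplets, ran from 7.68 to 7.90 in control and from 7.53 to 7.85 in knockout hearts (difference -0.13 ± 0.09; adjusted p = 0.620 with limma; -0.07 without knockout replicate 2), and its lowest knockout values were replicates 2 and 1. Within hearts, Plin5 minus Plin2 was 0.16 ± 0.26 in control and -0.29 ± 0.22 in knockout hearts (log2, SD, n = 4; difference -0.45; exact permutation p = 0.0857, adjusted over the 4 pairs p = 0.171).

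For triglyceride synthesis, Dgat2 had a lower mean in the knockout and Dgat1 did not separate the groups. Dgat2 measured 8.50, 8.90, 8.74 and 8.66 in control and 7.64, 8.61, 8.69 and 8.06 in knockout hearts (log2 signal). Knockout replicates 1 and 4 lay below all controls and replicates 2 and 3 among them. The difference was -0.45 ± 0.21 (SE; 95% interval -0.92 to 0.02; unadjusted p = 0.0585, adjusted p = 0.458 with limma). With each array left out in turn it ran from -0.60 (without knockout replicate 3) to -0.25 (without knockout replicate 1). Dgat1 ran from 5.93 to 6.36 in control and from 5.89 to 6.26 in knockout hearts (difference -0.03 ± 0.12; adjusted p = 0.949 with limma). Dgat2 minus Dgat1 within hearts was 2.61 ± 0.32 and 2.18 ± 0.67 (log2, SD, n = 4; difference -0.43; exact permutation p = 0.229, adjusted over the 4 pairs p = 0.286).

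**Figure D2:**
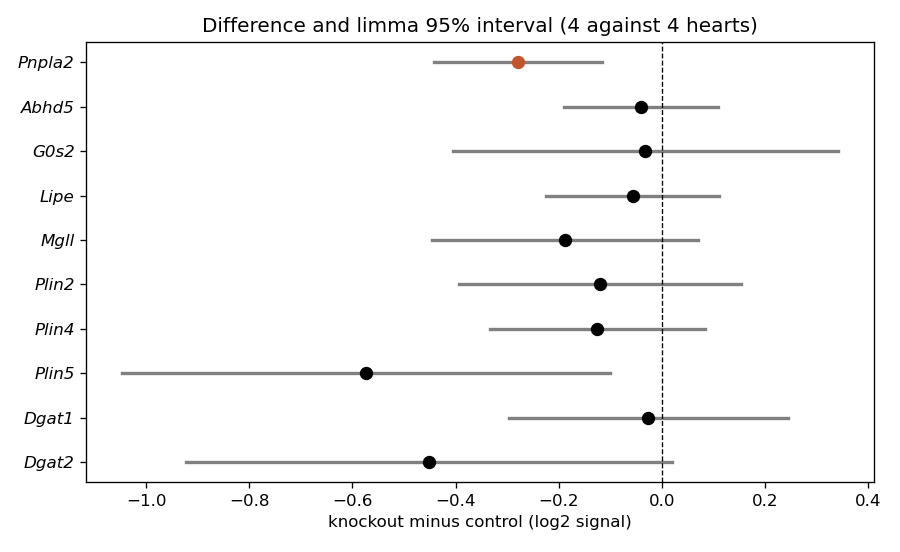
Knockout minus control difference (log2 signal, x axis) with limma's 95% interval for each gene (y axis), 4 against 4 hearts; the coloured point marks the gene whose groups do not overlap. The intervals of Pnpla2 (-0.44 to -0.12) and Plin5 (-1.05 to -0.10) lie below 0, and the other 8 include it.

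The lowest values of several of these genes gathered in a pair of knockout hearts. Knockout replicate 1 had the lowest signal of all 8 hearts for 5 of the 10 genes (Pnpla2, Lipe, Mgll, Plin5 and Dgat2) and one of the lowest 2 for 7. Knockout replicate 4 was lowest for 2 and among the lowest 2 for 6, while knockout replicate 3 was also lowest for 2 and knockout replicate 2 for 1. How often each heart was lowest over all tested genes was not examined here. Knockout replicates 2 and 3 lay close to the controls, with median deviations of 0.00 (0.0011) and 0.04 (log2) from the genes' means over the 8 hearts, against -0.18 and -0.15 for replicates 1 and 4. Control replicate 3 was highest for 4 genes, and no gene was highest in a knockout heart (0 of 10). With knockout replicates 1 and 4 both left out, the difference was -0.23 for Pnpla2 (unadjusted p = 0.0294, adjusted p = 0.988 with limma), -0.25 for Plin5, -0.05 for Dgat2 and -0.02 for Mgll. Those 2 hearts were picked with earlier results known, so smaller differences of Plin5, Dgat2 and Mgll without them follow from the choice.

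**Figure D3:**
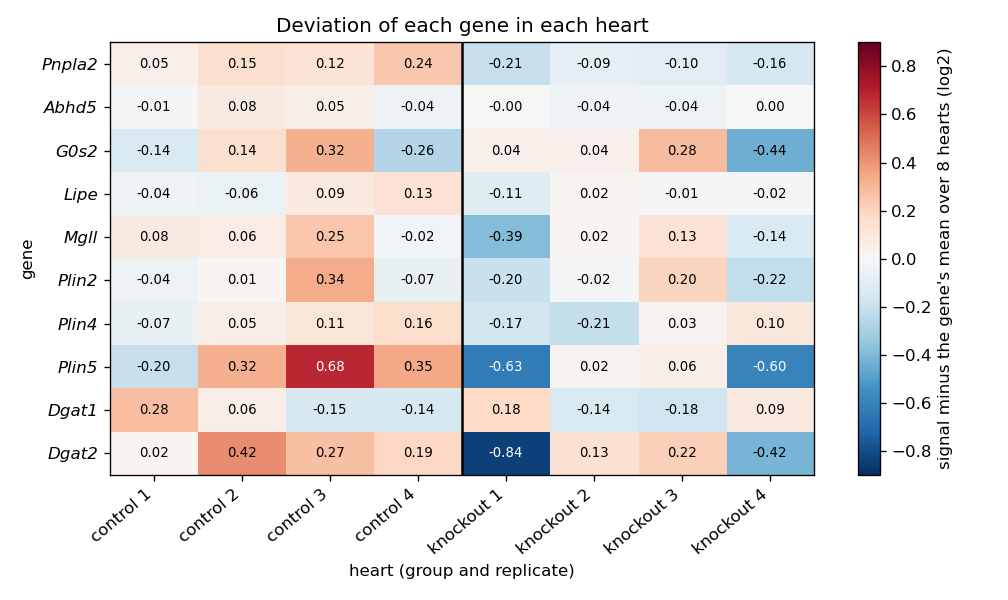
Deviation of each gene (y axis) from its own mean over the 8 hearts (log2, colour and printed value) in each heart (x axis, controls left of the line). Knockout replicates 1 and 4 hold the deepest negative values, -0.84 and -0.42 for Dgat2 and -0.63 and -0.60 for Plin5, while Pnpla2 is positive in the 4 controls and negative in the 4 knockout hearts.

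The hearts also differed in their cell type markers. Over all tested genes, 48.8% were lower in the knockout. At an unadjusted p under 0.05, 5.61% of them were lower and 5.64% higher. The 7 activated fibroblast markers were higher in the knockout for 7 of 7 genes, 6 of them at an unadjusted p under 0.05, and their mean level ran from 7.76 to 8.96 in control and from 8.26 to 9.79 in knockout hearts (log2), highest in knockout replicates 1 and 4. The 10 cardiomyocyte markers were lower for 9 of 10 (3 at an unadjusted p under 0.05), with mean levels of 11.63 to 11.73 in control and 11.38 to 11.68 in knockout hearts, lowest in the same 2 hearts. Among them Myh6 (-0.35 ± 0.13) and Myl2 (-0.36 ± 0.13, SE) differed most. Tnnt2 was the 1 with a higher mean in the knockout (0.03 ± 0.07), and Actc1 differed by only -0.05 ± 0.07. The part of these shifts in the droplet gene values was not tested. Adipocytes express several of these genes strongly. Of their 6 markers with a probe set (Adipoq, Lep, Plin1, Cidec, Retn and Car3), 4 were tested and all 4 had a higher mean in the knockout, 0 at an unadjusted p under 0.05. The defining genes Adipoq and Lep stayed at or below 3.08 and 3.02 on every array, under the signal filter of 3.80. Their means were lower in the knockout (differences -0.03 and -0.12). The mean level of the 6 was 3.64 to 3.82 in control and 3.58 to 4.29 in knockout hearts, with the highest in knockout replicate 2. There Car3 was at 6.48 and Retn at 4.76. In knockout replicates 1, 3 and 4 Car3 was at 3.67, 4.65 and 4.32 (control mean 4.35). Retn was at 3.98, 4.06 and 4.37 in the same hearts (control mean 4.27). Of 4 brown fat markers with a probe set, Ucp1 and Elovl3 were also under the filter on every array, at most 3.70 and 3.12 (differences -0.155 and 0.134). The other 2 were tested and had a higher mean in the knockout: Cidea, at 7.77 to 8.20 over the 8 arrays, differed by 0.07 ± 0.09, and Dio2, at 5.68 to 6.67, by 0.39 ± 0.16 (log2, SE; unadjusted p = 0.0393, adjusted p = 0.437 with limma). The mean level of the 4 was 4.92 to 5.09 in control and 4.95 to 5.24 in knockout hearts. Its relations to the 10 genes are among the 120 below. The smallest p was that of Plin5 (r = -0.44, exact permutation p = 0.275, adjusted p = 0.673). How much of the droplet gene values it accounts for was not tested. Knockout replicate 2 stood apart by its atrial markers (mean level 6.99, against 3.94 to 4.62 in the other hearts), and without it the differences were -0.30 for Pnpla2, -0.68 for Plin5, -0.57 for Dgat2, -0.07 for Plin4 and 0.02 for Dgat1.

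Plin5 and Dgat2 varied over the hearts inversely to the activated fibroblast level and in parallel with the cardiomyocyte level. All 12 marker groups were related to the 10 genes, which gave 120 relations, chosen after the values were seen. With the activated fibroblast level over 8 hearts, Plin5 had Pearson r = -0.96 (p = 1.49e-04 by exact permutation, 0.00893 adjusted over the 120) and Spearman rho = -0.93 (p = 0.00223 by exact permutation, 0.067 adjusted). Dgat2 had r = -0.92 (p = 7.44e-05 by exact permutation, 0.00893 adjusted) and rho = -0.98 (p = 3.97e-04 by exact permutation, 0.0476 adjusted). With the cardiomyocyte level, r was 0.90 for Plin5 (p = 0.00216 by exact permutation, 0.0432 adjusted; rho = 0.83, p = 0.0154, 0.163 adjusted). It was 0.95 for Dgat2 (p = 0.00169 by exact permutation, 0.0405 adjusted; rho = 0.81, p = 0.0218, 0.163 adjusted). The 2 marker levels were themselves inversely related (r = -0.90, p = 0.00315 by exact permutation; rho = -0.90, p = 0.00456; r = -0.62 with the 2 farthest hearts left out), and relations to one and to the other cannot be told apart here.

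Knockout replicates 1 and 4 were the hearts farthest from the median of both marker levels. Without them, r with the activated fibroblast level was -0.89 for Plin5 and -0.88 for Dgat2, and r with the cardiomyocyte level was 0.69 and 0.61. With values centred on their own genotype's mean, r with the activated fibroblast level was -0.94 and -0.88, and with the cardiomyocyte level 0.81 and 0.94. None of these 4 within-group values passed adjusted over the 120 (exact permutation p from 0.0104 to 0.0504, adjusted p from 0.313 to 0.404). Few arrangements are possible within groups of 4. For the within-group values here and below, 1 relation alone among the 120 could not pass, so their adjusted p-values decide nothing. Control replicate 1, whose activated fibroblast level of 8.96 lay above that of knockout replicates 2 and 3, also had less Plin5 and Dgat2 signal than those hearts. The cardiomyocyte level of control replicate 1, 11.63, lay below that of knockout replicate 2 (11.68) but above that of knockout replicate 3 (11.60).

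For Pnpla2 the relations to the activated fibroblast and cardiomyocyte levels were r = -0.82 and 0.83 (exact permutation p = 0.0192 and 0.00623, adjusted p = 0.164 and 0.0934), with rho = -0.83 and 0.95 (adjusted exact permutation p = 0.163 and 0.067). Without knockout replicates 1 and 4 these r were -0.58 and 0.73, and within groups -0.70 and 0.69 (exact permutation p = 0.0816 and 0.0295, adjusted p = 0.444 and 0.404). Control replicate 1 had more Pnpla2 signal (8.64) than knockout replicates 2 (8.51) and 3 (8.49), as it must where the groups do not overlap. The activated fibroblast level of control replicate 1 (8.96) was higher than that of knockout replicates 2 (8.80) and 3 (8.26). Its cardiomyocyte level (11.63) was lower than that of knockout replicate 2 (11.68) and higher than that of replicate 3 (11.60). The difference between Pnpla2 and the other genes in these relations was not tested.

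The remaining genes had no relation to the activated fibroblast or cardiomyocyte level with an adjusted Pearson p under 0.05. With the activated fibroblast level, Mgll and Plin2 had r = -0.80 and -0.77 (exact permutation p = 0.0103 and 0.0238, adjusted p = 0.137 and 0.188), which came to -0.34 and -0.48 without the 2 farthest hearts and to -0.71 and -0.77 within groups. Plin4 had r = -0.51, which came to -0.81 without those hearts and to -0.28 within groups. Dgat1 was the only one of the 10 with a positive r (0.60; 0.42 without the 2 hearts; 0.87 within groups, exact permutation p = 0.0191, adjusted p = 0.382). Of the other marker groups, the fibroblast level was related to Plin2 (r = -0.88, exact permutation p = 0.00131, adjusted p = 0.0394; rho = -0.93; -0.66 without its 2 farthest hearts; -0.87 within groups). The smooth muscle and pericyte level was related to Dgat2 (r = -0.86, exact permutation p = 0.00119, adjusted p = 0.0394; rho = -0.88; -0.82 without its 2 farthest hearts; -0.89 within groups). These were the only other relations of the 120 with an adjusted Pearson p under 0.05. The 5 smooth muscle and pericyte markers did not move together, with 2 higher and 3 lower in the knockout. Cnn1 ran from 4.74 to 8.54 and was highest in knockout replicate 1, where Kcnj8 (6.75) and Rgs5 (11.07) were lowest.

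**Figure D4:**
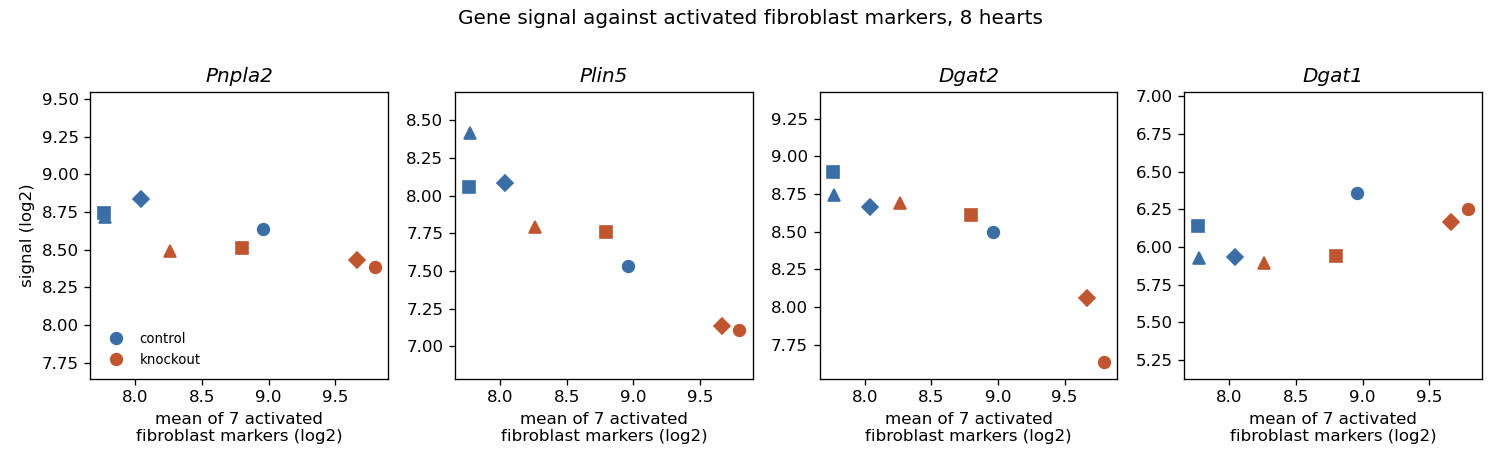
Signal (log2, y axis) of 4 genes against the mean of 7 activated fibroblast markers (log2, x axis) in the 8 hearts, control and knockout by colour and replicates 1 to 4 as circle, square, triangle and diamond. Plin5 (r = -0.96) and Dgat2 (r = -0.92) fall along 1 inverse order over both genotypes, Pnpla2 (r = -0.82) does not overlap between genotypes, and Dgat1 runs the other way (r = 0.60).

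The counts of the lists below stand beside these shares over all tested genes. In the knockout 48.8% were lower. At an unadjusted p under 0.05, 5.61% were lower and 5.64% higher. Without overlap between the groups, 2.9% were lower and 2.33% higher. Other lipases and lipase regulators pointed both ways. Of 8 listed genes 7 were tested, with 4 lower and 3 higher and a median difference of -0.07. Ddhd2, a phospholipase and triglyceride hydrolase gene, differed by -0.20 ± 0.07 (log2, SE) without overlap, and Pnpla8, which encodes a calcium-independent phospholipase, by -0.22 ± 0.09. Lipa, the lysosomal acid lipase gene, differed by 0.27 ± 0.12, the opposite direction to Pnpla2. Hilpda, another inhibitor of adipose triglyceride lipase, differed by 0.02 ± 0.08. At an unadjusted p under 0.05 there were 2 lower and 1 higher, and 0 passed adjusted.

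Of 13 tested genes of the droplet coat and of droplet formation, 6 had a lower and 7 a higher mean in the knockout (median difference 0.02). Fitm2, which helps droplets bud from the endoplasmic reticulum, differed by -0.37 ± 0.14 (SE) and was the 1 gene of this list at an unadjusted p under 0.05. Plin3, the ubiquitous perilipin, differed by -0.03 ± 0.08. Plin1 and Cidec, the coat genes of fat cells, differed by 0.22 ± 0.12 and 0.06 ± 0.11 at mean control signals of 4.44 and 3.94. None passed adjusted (0 of 13).

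The steps before DGAT were also split, with 8 of 15 tested genes lower and 7 higher (median -0.04). Lpin1, whose product makes diacylglycerol and also co-activates PPAR-alpha, had signals of 8.89 ± 0.11 (control) and 8.31 ± 0.39 (knockout; log2, SD, n = 4), without overlap (difference -0.57 ± 0.17, SE; unadjusted p = 0.00633, adjusted p = 0.421 with limma). Acsl6, an acyl-CoA synthetase gene, differed by -0.31 ± 0.12, and Gpam, the first acyltransferase of the pathway, by -0.16 ± 0.09. Lpin1 and Acsl6 were the 2 at an unadjusted p under 0.05, both lower, and 0 passed adjusted.

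Genes that bring fatty acids to the cell were lower in 10 of 11 cases (median -0.11). Lpl, the lipoprotein lipase gene, differed by -0.26 ± 0.11 and Slc27a1, a fatty acid transporter gene, by -0.23 ± 0.08 (log2, SE), each without overlap. These were the 2 of 11 at an unadjusted p under 0.05, and 0 passed adjusted.

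PPAR factors and their co-activators were lower for 8 of 9 genes (median -0.22), beside 48.8% of all tested genes. At an unadjusted p under 0.05, 4 of the 9 were lower, beside 5.61% of all tested genes, and 0 passed adjusted. Ppara, the PPAR-alpha gene, differed by -0.38 ± 0.14 (SE), from a control signal of 6.38 ± 0.18 to a knockout signal of 6.00 ± 0.26 (SD, n = 4). Ppargc1a, the gene of its co-activator PGC-1 alpha, differed by -0.61 ± 0.21. Lpin1, which this list shares with the synthesis list, was its 1 gene without overlap. Of 14 tested PPAR target genes 13 were lower (median -0.29), 5 of them at an unadjusted p under 0.05 and 0 adjusted. Acot2, a mitochondrial acyl-CoA thioesterase gene, differed by -0.83 ± 0.30, Mlycd, which encodes malonyl-CoA decarboxylase, by -0.37 ± 0.13 and Hadha, of mitochondrial beta-oxidation, by -0.31 ± 0.11. This list and that of fatty acid supply share Cd36, Fabp3 and Lpl, and parts of it were seen to be lower in earlier work on these arrays, so it is no independent evidence.

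Genes of adrenergic, cAMP and insulin control of lipolysis were lower for 9 of 14 (median -0.04). Pde3a, a cAMP phosphodiesterase gene, differed by -0.35 ± 0.10 (log2, SE) and Prkar2a, a regulatory subunit of protein kinase A, by -0.20 ± 0.07, each without overlap. They were the 2 at an unadjusted p under 0.05, and 0 passed adjusted. No tested gene in any of the 7 lists passed an adjusted p of 0.05 with limma.

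**Figure D5:**
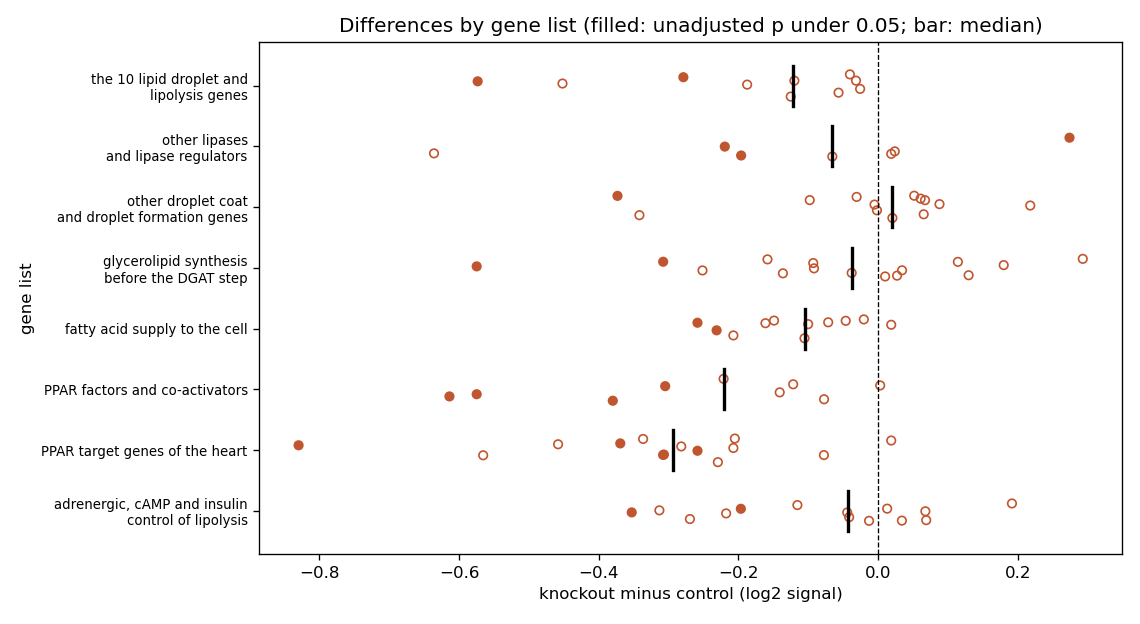
Knockout minus control difference (log2 signal, x axis) of every tested gene in the 10-gene set and in 7 related lists (y axis), with filled points at an unadjusted p under 0.05 and a bar at each median. The medians run from 0.02 for the droplet coat list to -0.29 for PPAR targets, and Lipa, at 0.27, is the 1 filled point above 0.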

How the data were processed

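Biotin-labelled heart RNA was hybridised to 8 arrays. Values deposited by the authors are log2 signals of 41345 probe sets. The submitters' processing notes name RMA, which normalizes by quantiles and so hides any shift of all genes together, and limma, both with no version. Genome build and array batches: not given in the sources used here.

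Probe sets with 1 symbol numbered 23521 (23328 renamed through RefSeq by Entrez identifier). Genes were tested from the 40th percentile of probe set means (3.80, log2). Knockout minus control was fitted with limma 3.58.1 in R 4.3.3 (lmFit, eBayes, no trend) with Benjamini-Hochberg adjustment, a step tested on simulated data. Errors are moderated standard errors. Single values had an exact two-sided permutation test over 70 arrangements. The number of arrays limits the precision. The members, lists and alternatives were chosen with earlier results of these data known. Named were the members, Cited4, up to 3 genes per list and direction at an unadjusted p under 0.05, 7 fixed genes and markers a result turns on. Of the listed genes, those without a probe set of 1 symbol were not analysed here.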

Additional observations from a re-analysis of the deposited data

How the results depend on the processing

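The 10 genes were recomputed under 18 alternatives and the count of called genes under 19. Limma called 0 genes in each, also at an adjusted p of 0.1, and the smallest adjusted p of any of the 10 was 0.146 (Plin5, replicate block). The count of the 10 at an unadjusted p under 0.05, all lower, was 1 with unmoderated variances, beside 4.78% of all tested genes lower at that level. It was 1 without knockout replicates 1 and 4 (beside 1.9%). When each array was left out it ran from 1 to 4, beside 3.17% to 8.8% of all tested genes. The count without overlap ran from 1 to 2, with 2 only without control replicate 1. Leaving arrays out cannot create overlap, so this count could not fall in those fits. Pnpla2 had an unadjusted p under 0.05 in every one of the fits. The sign of 3 genes turned: Dgat1 with array weights (0.0037) and between -0.0897 and 0.0634 with arrays left out, G0s2 with the mean of its probe sets (0.01; 0.0124), without knockout replicates 1 and 4 (0.15) and between -0.13 and 0.11 with arrays left out, and Plin2 without knockout replicates 1 and 4 (0.0317). The cause was not tested. With the replicate number as a block, 3 of the 10 (Pnpla2, Plin5 and Dgat2) had an unadjusted p under 0.05, all lower, and 0 genes were called. Of all tested genes 974 were lower at that level (6.46%), and 2177 differed in either direction. Deviations of same-numbered arrays correlated at r = 0.36, 0.01, 0.28 and -0.03, and 4 of 8 arrays correlated best with their own number. Not every pair exceeded 0.1, so the numbers were not used as pairs, although a shared origin was not tested.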

Other observations

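In RefSeq's gene order Plin5 lies next to Plin4, and Dgat2 next to Mogat2, a monoacylglycerol acyltransferase gene of the intestine. Plin4 differed by -0.13 ± 0.09 beside the -0.57 ± 0.21 of Plin5 (log2, SE). Mogat2, named after its values were seen, differed by 0.13 ± 0.08 (unadjusted p = 0.140, adjusted p = 0.548 with limma) beside the -0.45 ± 0.21 of Dgat2, at a mean control signal of 4.49.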
